A study of Homo sapiens with 6 samples.

Results

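The genes described here are 41 genes of homologous recombination and the response to replication stress, read out by RNA sequencing in the A498 line carrying either a control hairpin (short hairpin RNA, shRNA) or an shRNA against RNF26. They were taken by name from a table of 61541 genes, and each of the 41 names matched 1 gene in it. A mean of at least 1 CPM (reads of a gene scaled to a common library size) over the 6 libraries was needed for testing, which 40 of the 41 genes and 14766 genes in all passed. A498 is a human line labelled as renal clear cell carcinoma, and RNF26 encodes a ubiquitin ligase of the endoplasmic reticulum membrane. The libraries formed 2 groups of 3, called shcontrol and shRNF26 in the labels, and both groups carried the same label for how the hairpin was introduced (transfection infection). The medium was RPMI-1640 with serum in every group. How many hairpins and clones were used was not given in the sources used here. The series title concerns CDK4/6 inhibitors, RNF26 and TSC1 stability, and the genes below were not named in it.

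Homologous recombination repairs DNA breaks by copying the intact sister chromatid and is used mainly in S and G2 phase. The MRE11, RAD50 and NBN proteins sense the break and start to trim its ends, BRCA1 and its partners promote that trimming, and BRCA2 with PALB2 acts at the strand exchange step that follows. The Fanconi anaemia proteins use the same machinery at crosslinks: a core complex attaches ubiquitin to FANCD2 and FANCI, and USP1 removes it. When a replication fork stalls, ATR with ATRIP activates the kinase CHK1 (gene CHEK1) through the mediators TOPBP1 and claspin (gene CLSPN), while the TIMELESS and TIPIN proteins travel with the fork as a complex. ATM and its target CHK2 (gene CHEK2) respond to breaks in a parallel branch.

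Most of these transcripts were slightly more abundant in the shRNF26 libraries, and the 3 called lower were CLSPN, TIPIN and CHEK1. The CHEK1 call was lost under 7 of 13 alternatives. Of the 40 genes tested, 22 rose, 3 fell and 15 did not pass (edgeR quasi-likelihood test, adjusted p below 0.05). Among all 14766 tested genes 41.4% were called, 18.9% higher and 22.6% lower. The median log2 change of the 40 genes was 0.20, beside 0.008 for all tested genes, and changes lay between -0.38 (CLSPN) and 0.53 (CHEK2). All 3 shRNF26 libraries lay above all 3 shcontrol libraries for 23 of the 40 and below for 5, beside 24.2% and 25.9% of all tested genes (50.1% in either direction). The summed level of all 41 genes was 2335 to 2412 CPM in the shcontrol libraries and 2606 to 2756 CPM in the shRNF26 libraries, so these sums did not overlap. Levels are CPM scaled by the trimmed mean of M values (TMM), which corrects the library total for composition, and log2 changes are log2 fold changes, shRNF26 minus shcontrol.

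**Figure D1:**
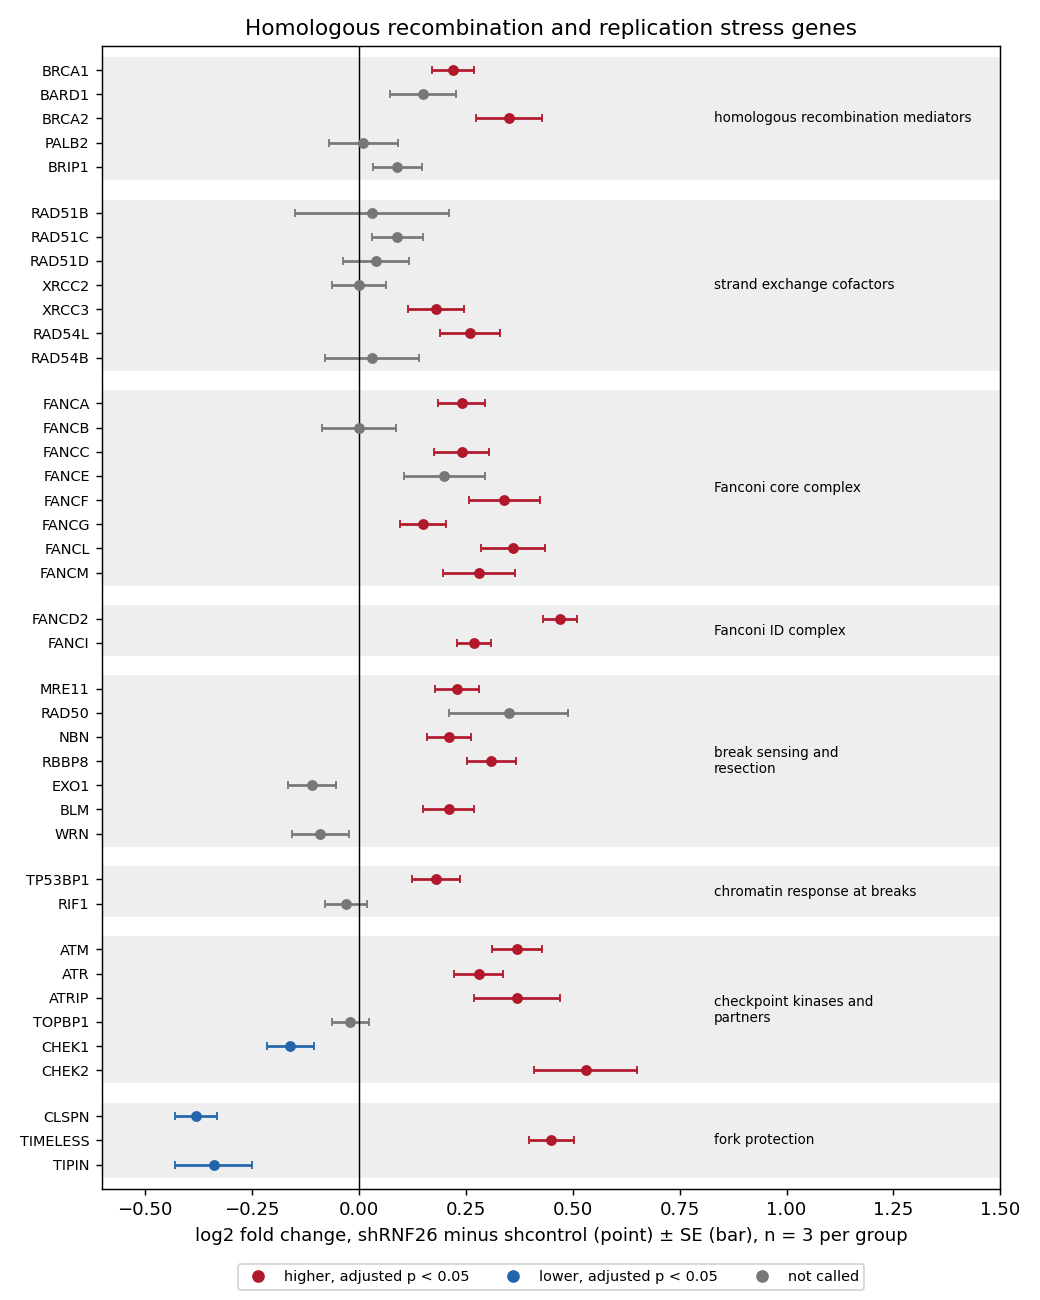
Log2 fold change of the 40 tested genes (horizontal axis, points) with its standard error (bars), grouped by role, from the edgeR fit of 3 shRNF26 against 3 shcontrol libraries. CHEK2, FANCD2 and TIMELESS lie farthest to the right (0.53, 0.47 and 0.45), and CLSPN and TIPIN farthest to the left (-0.38 and -0.34).

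Each library held 16682871 to 18021718 counts, so 1 count was worth 0.0555 to 0.0599 CPM before scaling. RNF26 itself had a mean of 1972 CPM in the shcontrol and 68.7 CPM in the shRNF26 libraries (log2 change -4.84 ± 0.04 SE), as the labels state. No library stood apart: correlations across genes were at least 0.9948 within a group. Mean levels under 1 CPM were found for 7 of 12 markers of kidney tubule and its clear cell carcinoma, among them PAX2, CA9 and CDH16. Others of that list were present in the shcontrol libraries, with EPAS1 at 170.0, VIM at 49.9, MME at 26.2 and PAX8 at 2.90 CPM. All 10 squamous keratinocyte markers exceeded 1 CPM as a mean of the 6 libraries. Their shcontrol means ran from KRT14 at 4.04 and SPRR1B at 5.13 to TP63 at 173 and KRT5 at 583 CPM. SPRR2A had 12.6 CPM in the shcontrol but 0.663 CPM in the shRNF26 libraries. The summed level of the 10 squamous markers was 2102 to 2246 CPM in the shcontrol and 1555 to 1631 CPM in the shRNF26 libraries. The cell type rests on the labels. The labels do not state that replicates were independent cultures, and the tests therefore describe variation among these libraries only. In bulk RNA, a change in the share of cells in S or G2 phase cannot be told apart from a change of transcript level in each cell.

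The proximal promoters of the 3 genes called lower and of the 3 that rose most are shown because these genes belong to the same gene set but moved in opposite directions. Each line gives the 120 bases before a RefSeq transcription start, 5′ to 3′ on the gene's strand, in build GRCh38.p14. Capitals mark CCAAT boxes (CCAAT or its reverse complement ATTGG) and E2F-type words (TTTCCCGC, TTTGGCGC, TTTCGCGC or TTTGCCGC, on both strands).
CLSPN (chr1:35769979-35770098, minus strand): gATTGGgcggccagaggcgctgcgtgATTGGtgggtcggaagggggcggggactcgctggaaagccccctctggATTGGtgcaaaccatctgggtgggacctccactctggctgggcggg
TIPIN (chr15:66356686-66356805, minus strand): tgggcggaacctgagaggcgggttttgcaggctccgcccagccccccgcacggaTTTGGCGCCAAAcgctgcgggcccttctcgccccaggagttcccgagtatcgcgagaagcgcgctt
CHEK1 (chr11:125626104-125626223, plus strand): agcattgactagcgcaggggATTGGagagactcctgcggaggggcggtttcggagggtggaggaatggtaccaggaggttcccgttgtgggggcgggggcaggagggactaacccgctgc
CHEK2 (chr22:28741821-28741940, minus strand): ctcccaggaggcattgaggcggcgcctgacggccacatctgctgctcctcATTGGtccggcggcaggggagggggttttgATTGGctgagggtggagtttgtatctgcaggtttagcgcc
FANCD2 (chr3:10026317-10026436, plus strand): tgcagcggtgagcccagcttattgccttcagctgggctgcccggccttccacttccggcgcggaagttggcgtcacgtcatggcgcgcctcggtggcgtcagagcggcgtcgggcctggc
TIMELESS (chr12:56449427-56449546, minus strand): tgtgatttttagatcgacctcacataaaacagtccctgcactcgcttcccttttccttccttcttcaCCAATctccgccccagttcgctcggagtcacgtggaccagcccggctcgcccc

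The CLSPN window holds 3 CCAAT boxes and the CHEK2 window holds 2, and the window of a CHEK1 start not shown also holds 2. The TIPIN window holds 2 E2F-type words on opposite strands that overlap and form the palindrome TTTGGCGCCAAA. The CCAAT box counted for TIPIN below lies before another start. That TIPIN start and other CHEK1 starts are listed in RefSeq and are not shown. RefSeq starts were matched for 37 of the 41 genes, and FANCI, NBN, WRN and RAD54B had no entry in the table. In the 250 bases before any listed start, an E2F-type word was found in 3 of the 37 genes (TIPIN, FANCA and FANCC), or 8.11%, beside 5.55% of 10765 genes tested for expression and 3.4% of all 27305 genes in the table. A CCAAT box was found in 20 of 37, or 54.1%, beside 41.2% of tested genes and 37.0% of all genes. It was present in 13 of 20 genes called higher, 3 of 3 called lower and 4 of 14 others. The cell cycle homology words TTTGAA and TTCGAA were found in 5 of 37, or 13.5%, beside 13.2% of tested genes. These words were present in 2 of 20 genes called higher, 0 of 3 called lower and 3 of 14 others. For CCAAT boxes and these words, shares by call over all tested genes were not computed, so the splits have no background. CHEK1 had 3 listed starts, and TIPIN had 2, as did several other genes of the set, among them ATM, ATRIP, BRCA1 and FANCC. More bases were searched for such genes than for genes with 1 start, although windows of nearby starts overlap. These matches describe letters in a window and show no binding.

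Partners among the fork protection genes moved in opposite directions. CLSPN (ENSG00000092853), which encodes the adaptor that brings CHK1 to ATR, had 121, 113 and 116 CPM in the shcontrol libraries and 92.3, 85.5 and 91.3 CPM in the shRNF26 libraries. Every shRNF26 library lay below every shcontrol library (log2 change -0.38 ± 0.049 SE, adjusted p = 4.8e-06 in edgeR). TIPIN (ENSG00000075131) had 22.2, 23.9 and 22.96 CPM against 19.1, 16.1 and 19.5 CPM, again without overlap (log2 change -0.34 ± 0.089 SE, adjusted p = 0.0049 in edgeR). TIPIN shares 21% of its exon bases with a ribosomal protein pseudogene on the same strand, RPL9P25. Its partner TIMELESS (ENSG00000111602) moved the other way, with 91.97, 81.6 and 81.98 CPM against 115, 114 and 119.6 CPM (log2 change 0.45 ± 0.052 SE, adjusted p = 1.3e-06 in edgeR). The ratio of TIMELESS to TIPIN reads, which does not depend on library scaling, was 4.15, 3.42 and 3.57 in the shcontrol libraries and 6.04, 7.09 and 6.14 in the shRNF26 libraries. This ratio was computed after the values of both genes were known and is given without a test.

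The kinases and their partners mostly rose, with CHEK1 on the other side. In this class 83.3% were called, beside 41.4% of all tested genes. ATR (ENSG00000175054) had 43.1, 40.98 and 44.2 CPM in the shcontrol and 52.01, 50.6 and 53.5 CPM in the shRNF26 libraries (log2 change 0.28 ± 0.058 SE, adjusted p = 0.00067 in edgeR). ATRIP (ENSG00000164053), its obligate partner, had 11.3, 14.9 and 13.1 CPM against 17.3, 16.9 and 16.4 CPM (log2 change 0.37 ± 0.1 SE, adjusted p = 0.0082 in edgeR). Neither gene overlapped between the groups. ATRIP shares 27.9% of its exon bases with TREX1 on the same strand, and TREX1 was listed at 0 counts in all 6 libraries. ATR shares 16.4% of its exon bases with a pseudogene on the opposite strand. TOPBP1, the activator of ATR, had 145 ± 3.57 CPM and 144 ± 3.56 CPM (mean ± SD, n = 3 per group), with a log2 change of -0.02 (SE 0.043) that did not pass.

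CHEK1 (ENSG00000149554) had 59.6, 60.4 and 61.7 CPM in the shcontrol and 54.9, 51.9 and 56.1 CPM in the shRNF26 libraries. The groups did not overlap, and the fall was small (log2 change -0.16 ± 0.055 SE, adjusted p = 0.027 in edgeR). This call was lost with DESeq2 (adjusted p = 0.055), with total-count scaling (log2 change -0.07, adjusted p = 0.33) and with no filter on low counts (adjusted p = 0.052). It was also lost without shcontrol replicate 2 (adjusted p = 0.06) or 3 (adjusted p = 0.061) and without shRNF26 replicate 1 (adjusted p = 0.062) or 2 (adjusted p = 0.12). In the parallel branch, ATM (ENSG00000149311) had 47.4, 46.2 and 51.9 CPM against 64.3, 60.4 and 63.6 CPM (log2 change 0.37 ± 0.059 SE, adjusted p = 5.2e-05 in edgeR). CHEK2 (ENSG00000183765) had 9.13, 7.12 and 9.08 CPM against 11.99, 11.4 and 13.2 CPM, the highest log2 change among the 40 genes (0.53, SE 0.12, edgeR adjusted p = 0.0018). Both genes of that branch were higher in every shRNF26 library than in any shcontrol library.

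**Figure D2:**
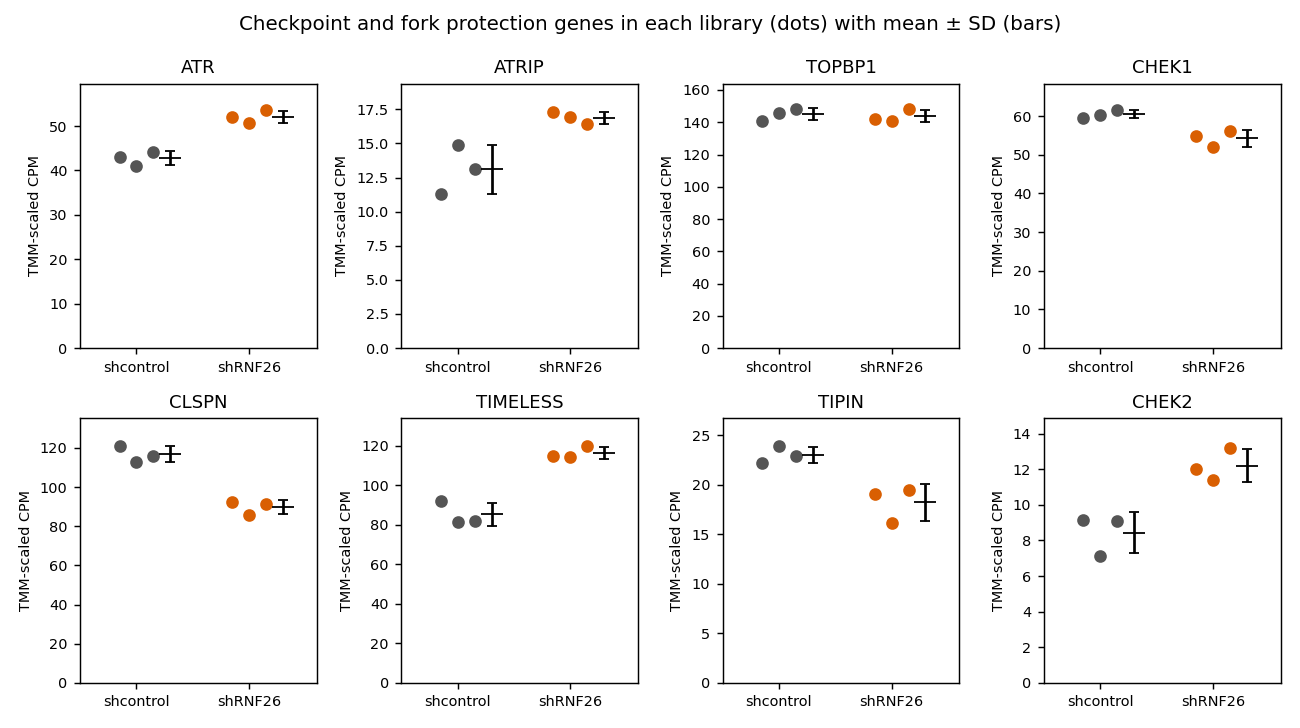
Level of 8 checkpoint and fork protection genes in each library (vertical axis, TMM-scaled CPM; dots, libraries; bars, mean ± SD, n = 3 per group). ATR, ATRIP, TIMELESS and CHEK2 are higher in all 3 shRNF26 libraries, CHEK1, CLSPN and TIPIN are lower in all 3, and the TOPBP1 groups overlap at 141 to 148 CPM.

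In the Fanconi anaemia pathway both genes of the FANCD2 and FANCI complex and 6 of 8 core genes rose. Among all tested genes 18.9% were called higher. FANCD2 (ENSG00000144554), the protein that is marked with ubiquitin at crosslinks, had 219, 227 and 220.3 CPM in the shcontrol libraries and 305, 298 and 318 CPM in the shRNF26 libraries. The lowest shRNF26 library was well above the highest shcontrol library (log2 change 0.47 ± 0.04 SE, adjusted p = 1.9e-08 in edgeR). FANCI (ENSG00000140525), its partner in the clamp that closes on DNA, had 197, 199 and 206 CPM against 239.9, 239 and 248 CPM (log2 change 0.27 ± 0.04 SE, adjusted p = 2e-05 in edgeR). The ratio of FANCD2 to FANCI reads was 1.11, 1.14 and 1.07 in the shcontrol and 1.27, 1.25 and 1.28 in the shRNF26 libraries, with no overlap; it was also computed after the values were known.

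Of the 8 core complex genes, 6 rose, 0 fell and FANCB and FANCE did not pass. At an unadjusted p below 0.05 the count of core genes that fell was also 0, and DESeq2 called 0 lower. FANCL (ENSG00000115392), the ubiquitin ligase subunit of the complex, had 28.3, 30.3 and 31.8 CPM against 39.9, 34.8 and 41.01 CPM (log2 change 0.36 ± 0.075 SE, adjusted p = 0.0009 in edgeR). Of its exon bases, 19.7% are shared with other annotated genes, among them VRK2 on the opposite strand. FANCF (ENSG00000183161), an adaptor subunit, had 18.4, 19.2 and 19.7 CPM against 23.1, 23.3 and 26.2 CPM (log2 change 0.34 ± 0.083 SE, adjusted p = 0.0027 in edgeR). In both genes the groups were separate. FANCM (ENSG00000187790), the translocase that anchors the complex on DNA, had 18.8, 19.2 and 18.4 CPM against 23.2, 24.3 and 20.9 CPM (log2 change 0.28 ± 0.084 SE, adjusted p = 0.012 in edgeR). Its call was lost without shRNF26 replicate 2 (log2 change 0.23, adjusted p = 0.066).

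The core subunits FANCA and FANCC each had a log2 change of 0.24 (edgeR adjusted p = 0.0014 and 0.0055). For FANCA, 23.6% of the exon bases are shared with ZNF276 on the opposite strand. FANCG, another core subunit, had 69.8 ± 2.75 and 77.5 ± 3.32 CPM (log2 change 0.15, edgeR adjusted p = 0.029). That call was lost without shcontrol replicate 1 (adjusted p = 0.1) or 3 (adjusted p = 0.062) and without shRNF26 replicate 2 (adjusted p = 0.057) or 3 (adjusted p = 0.11). FANCE, which links the core to FANCD2, had 14.1 ± 1.20 and 16.2 ± 0.561 CPM (log2 change 0.20 ± 0.095 SE), and FANCB had 20.5 ± 1.97 and 20.6 ± 0.311 CPM. FANCE passed with total-count scaling alone among the alternatives (log2 change 0.29, adjusted p = 0.018).

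Among the mediators of strand exchange, both BRCA genes rose and their partners did not pass. BRCA1 (ENSG00000012048) had 109, 119.8 and 115 CPM in the shcontrol and 139, 133 and 129 CPM in the shRNF26 libraries (log2 change 0.22 ± 0.048 SE, adjusted p = 0.0012 in edgeR). BRCA2 (ENSG00000139618), a mediator of strand exchange, had 27.1, 29.5 and 28.9 CPM against 36.1, 32.9 and 39.7 CPM (log2 change 0.35 ± 0.077 SE, adjusted p = 0.0013 in edgeR). Neither gene overlapped between groups. BARD1, the ring-finger partner of BRCA1, changed by 0.15 (SE 0.078) on the log2 scale, the helicase BRIP1 0.09 (SE 0.057) and PALB2, which bridges BRCA1 and BRCA2, 0.01 (SE 0.081). The groups of all 3 partners overlapped. BARD1 passed with total-count scaling (0.24, adjusted p = 0.016) and without shcontrol replicate 3 (0.23, adjusted p = 0.027), and BRIP1 with total-count scaling (0.18, adjusted p = 0.016), which gave 4 of 5 mediators higher. The ratio of BRCA1 to BARD1 reads was 3.72 to 4.39 in the shcontrol and 4.20 to 4.50 in the shRNF26 libraries, and these ranges overlapped.

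A further class of strand exchange cofactors (RAD51B, RAD51C, RAD51D, XRCC2, XRCC3, RAD54L and RAD54B) had small changes. Of these, 2 of 7 rose, 0 fell and 5 did not pass (median 0.04). By an unadjusted p below 0.05, and by DESeq2, 0 of the 7 were lower as well. RAD51B, RAD51C, RAD51D and XRCC2 had log2 changes of 0.00 to 0.09, with overlapping groups in each. RAD51C passed with total-count scaling (0.18, adjusted p = 0.017). RAD54L, a DNA translocase, had 37.3 ± 2.19 and 44.7 ± 3.88 CPM (log2 change 0.26 ± 0.071 SE, adjusted p = 0.0062 in edgeR), a call lost without shRNF26 replicate 3 (0.19, adjusted p = 0.051). XRCC3 had 41.9 ± 2.14 and 47.6 ± 3.41 CPM (log2 change 0.18 ± 0.066 SE, adjusted p = 0.032 in edgeR). The XRCC3 call was lost with DESeq2 (adjusted p = 0.053), without shcontrol replicate 2 (adjusted p = 0.16) and without shRNF26 replicate 1 (adjusted p = 0.079) or 2 (adjusted p = 0.17). XRCC3 shares 76.7% of its exon bases with KLC1 on the opposite strand, RAD54L shares 25.1% with LRRC41 on the opposite strand, and RAD54B shares 59.1% with FSBP on its own strand. LRRC41 was itself called higher (log2 change 0.20, edgeR adjusted p = 0.0056), while KLC1 (-0.12) and FSBP (0.05) were not called. How strand and shared reads were counted was not given in the sources used here, and the part of these overlaps in the values was not tested.

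In break sensing and end resection, 4 of 7 genes rose, 0 were lower by edgeR, by DESeq2 or at an unadjusted p below 0.05, and 3 did not pass. The share called in this class was 57.1%, beside 41.4% of all tested genes. RBBP8 (ENSG00000101773) encodes CtIP, which starts resection with the MRE11 complex, and had 56.5, 61.2 and 58.8 CPM against 70.9, 70.2 and 77.8 CPM. The groups were separate (log2 change 0.31 ± 0.057 SE, adjusted p = 0.00024 in edgeR). The nuclease MRE11 and the adaptor NBN rose together, by 0.23 (SE 0.051) and 0.21 (SE 0.051) on the log2 scale, with edgeR adjusted p = 0.0012 and 0.0032. RAD50, the ATPase of the same complex, had only 5.94 ± 0.826 and 7.57 ± 0.761 CPM. Its log2 change of 0.35 (SE 0.14) did not pass (edgeR adjusted p = 0.059), and 79.7% of its exon bases are shared with other annotated genes, chiefly the same-strand gene AC116366.3. RAD50 passed under 5 alternatives, with adjusted p = 0.018 to 0.047.

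Among the long-range resection enzymes, 1 of 3 passed. EXO1, a nuclease, had 48.2 ± 0.468 and 44.7 ± 0.719 CPM (log2 change -0.11 ± 0.056 SE), and the helicase WRN had 31.98 ± 0.380 and 30.1 ± 0.798 CPM (-0.09, SE 0.067). Each shRNF26 library was below each shcontrol library in both genes, as for 25.9% of all tested genes, but neither passed the test (edgeR adjusted p = 0.13 and 0.31). The helicase BLM, which unwinds DNA for the same step, had 43.9 ± 0.377 and 50.97 ± 3.02 CPM (log2 change 0.21, edgeR adjusted p = 0.0078). The BLM call was lost without shRNF26 replicate 3 (0.17, adjusted p = 0.051).

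Chromatin response genes limit or direct resection. TP53BP1, whose protein 53BP1 protects ends from resection, had 99.05 ± 1.91 and 112 ± 9.53 CPM (log2 change 0.18 ± 0.056 SE, adjusted p = 0.013 in edgeR). The TP53BP1 call was lost without shcontrol replicate 2 (adjusted p = 0.062) and without shRNF26 replicate 1 (adjusted p = 0.09) or 3 (adjusted p = 0.06), and 28.7% of its exon bases are shared with TUBGCP4 on the opposite strand. Its effector RIF1 had 196 ± 11.2 and 192 ± 9.24 CPM, with overlapping groups and a log2 change of -0.03 (SE 0.049). MDC1, the scaffold that reads phosphorylated H2AX, was the 1 gene not tested, with 5, 10 and 12 counts in the shcontrol and 22, 13 and 10 counts in the shRNF26 libraries.

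Levels per kilobase of exon differed widely among these genes. FANCD2 and FANCI were highest in the shcontrol libraries, at 26.5 ± 0.487 and 25.8 ± 0.577 CPM per kilobase, and the difference between them was close to their SDs. CLSPN followed at 21.6 ± 0.821, then TOPBP1 at 19.9 ± 0.488 and FANCG at 19.3 ± 0.760 CPM per kilobase. In the shRNF26 libraries CLSPN had 16.6 ± 0.680 CPM per kilobase, below TOPBP1 (19.7 ± 0.488) and TIMELESS (19.99 ± 0.498). The lowest values in the shcontrol libraries were MDC1 (0.0673 ± 0.0284), RAD50 (0.608 ± 0.0845) and RAD51B (0.815 ± 0.229 CPM per kilobase). The apical kinases were also low per length, with ATM at 2.02 ± 0.125 and ATR at 3.42 ± 0.130 CPM per kilobase. Exon lengths came from GENCODE 29 and count every annotated exon, so long or rarely used exons lower these values. The RAD50 value also carries the exon sharing given above, and the part of the counting method in the low MDC1 value was not tested.

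**Figure D3:**
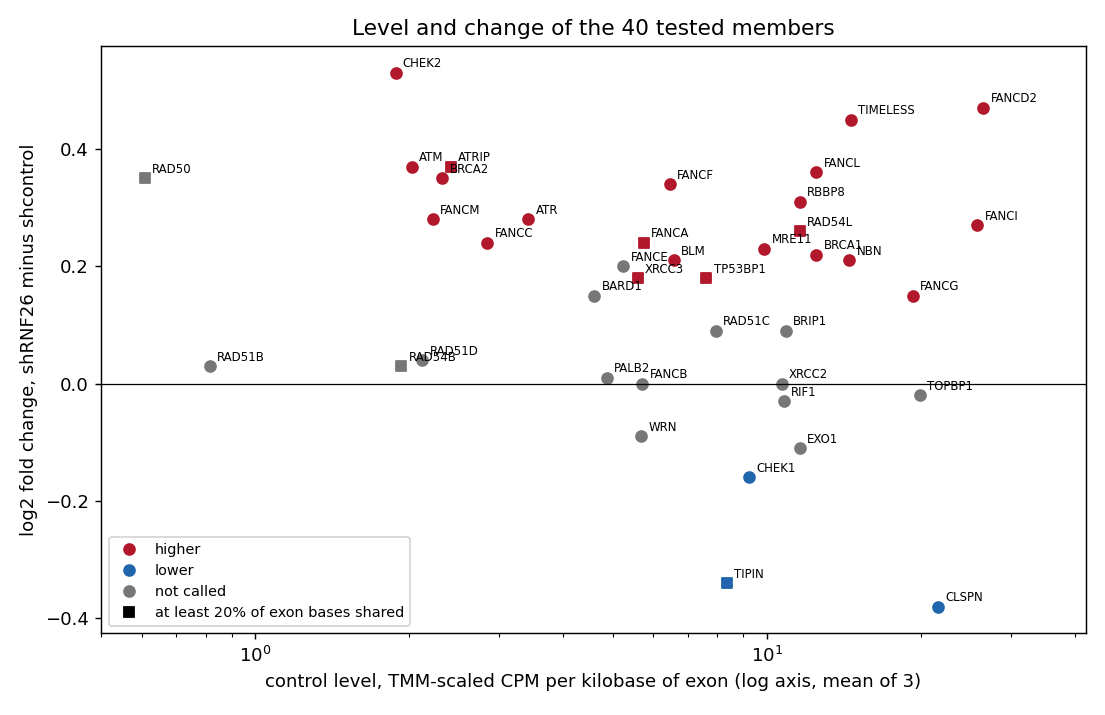
Control level (horizontal log axis, TMM-scaled CPM per kilobase of exon, mean of 3 libraries) against log2 change (vertical axis) for the 40 tested genes. Genes called higher occur from CHEK2 (1.88 CPM per kilobase) to FANCD2 (26.5), and squares mark the 8 genes with at least 20% of exon bases shared with another gene.

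Other genes of these pathways were called in both directions. Of the other homologous recombination genes 53.3% were called and of the other Fanconi and crosslink repair genes 33.3%, beside 41.4% of all tested genes. Of 30 other homologous recombination genes tested, 10 rose and 6 fell (edgeR, median 0.13), and with total-count scaling 15 were higher and 1 was lower. GEN1, a resolvase of recombination junctions, had 81.9 ± 4.32 and 115 ± 5.02 CPM (log2 change 0.49 ± 0.052 SE). RMI2, a partner of BLM, rose (0.36) and the helicase HELQ fell (-0.36). HELQ lost its call with total-count scaling (-0.27) and without shcontrol replicate 3 (-0.28) or shRNF26 replicate 1 (-0.35) or 2 (-0.27), and RMI2 without shRNF26 replicate 1 (0.29). Of 15 other Fanconi and crosslink repair genes 2 rose and 3 fell (median 0.03), beside 4 higher and 3 lower with total-count scaling. The 3 were USP1, the deubiquitinase of FANCD2 and FANCI, from 341 ± 14.7 to 235 ± 5.15 CPM (log2 change -0.54 ± 0.041 SE), its cofactor WDR48 (-0.29) and the nuclease subunit ERCC1 (-0.50).

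Called shares were 56.2% of 16 other replication checkpoint genes, 35.7% of 14 other chromatin response genes and 41.7% of 12 end joining genes. Among all tested genes the share was 41.4%. Of the checkpoint genes 5 rose and 4 fell (median 0.16). CDC25A, the phosphatase that CHK1 marks for destruction, had 90.7 ± 1.96 and then 53.4 ± 1.41 CPM (log2 change -0.76 ± 0.051 SE), while the ATR activator ETAA1 and the origin kinase CDC7 each rose by 0.36. With total-count scaling the split was 10 higher and 2 lower. Of 14 other chromatin response genes 2 rose and 3 fell (median -0.01), with H2AX at 0.36, BABAM2 at 0.45 and SHLD3 at -0.79. With total-count scaling 5 were higher and 1 lower, and DESeq2 called 1 lower. SHLD3 had 2.62 CPM in the shcontrol and 1.51 CPM in the shRNF26 libraries, and lost its call without shcontrol replicate 3 (-0.68) or shRNF26 replicate 2 (-0.63). Non-homologous end joining, the competing route of break repair, had 3 of 12 genes higher and 2 lower (median 0.09; 5 and 2 with total-count scaling), with PRKDC at 0.27, LIG4 at -0.57 and DCLRE1C at -0.36.

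Cell cycle markers differed between the groups beside these changes. The share called was 94.4% of the G2 and M phase markers and 58.8% of the S phase markers, beside 41.4% of all tested genes. Of 18 G2 and M phase markers 17 rose, 0 fell by edgeR, by DESeq2 or at an unadjusted p below 0.05, and the median was 0.31. Their summed level was 3141 to 3289 CPM in the shcontrol and 4057 to 4271 CPM in the shRNF26 libraries. HMMR (0.66), CDK1 (0.53) and TOP2A (0.52) had the largest changes, and NUSAP1, at 0.902 ± 0.322 CPM in the shcontrol libraries, did not pass. Of 17 S phase markers 3 rose and 7 fell (median -0.06), with SLBP at -0.73, CCNE2 at -0.48 and CDT1 at -0.39, and their summed level was 3197 to 3257 against 3033 to 3060.4 CPM. With total-count scaling the S phase split was 5 higher and 4 lower, and the G2 and M phase split was unchanged in number, at 17 and 0. The part of cell cycle distribution in the changes of the recombination genes was not tested.

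**Figure D4:**
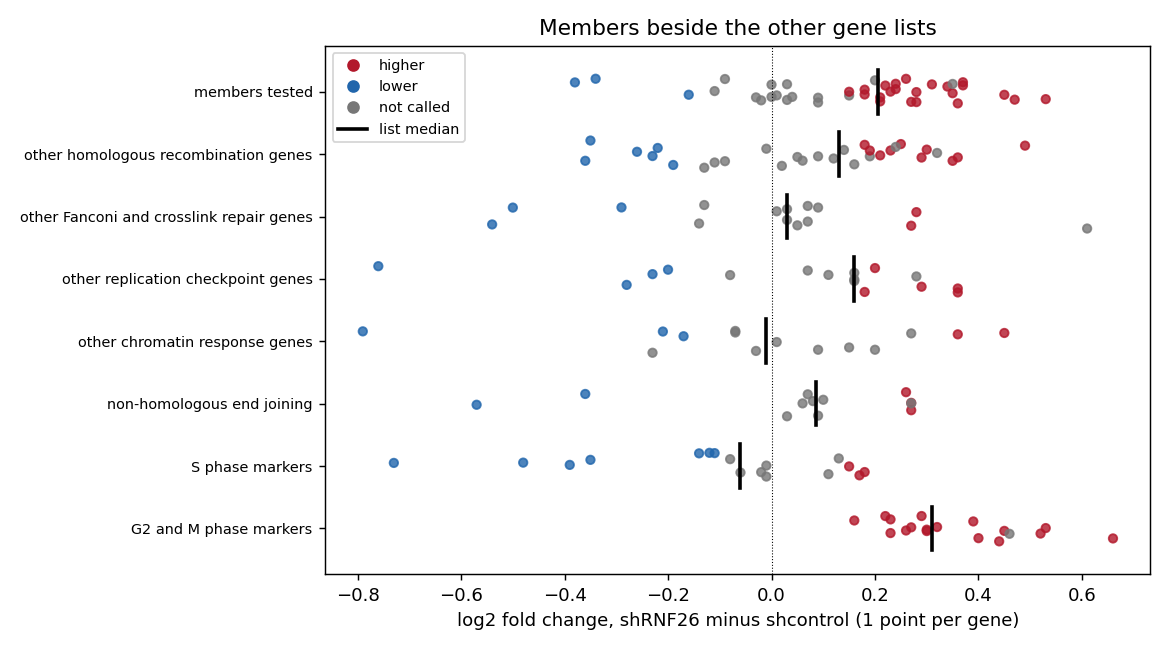
Log2 fold change (horizontal axis) of each tested gene in the 40 tested members and in the other pathway, end joining and cell cycle lists (rows; points, genes; black bars, medians). The member median is 0.20, and those of the other pathway and end joining lists are -0.01 to 0.16. All of these lie between the medians of the S phase markers (-0.06) and the G2 and M phase markers (0.31).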

How the data were processed

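The authors deposited 1 table of whole-number gene counts for 6 libraries, although it is named for FPKM. Values were treated as counts because they are whole and library totals differ. The submitters' processing notes name hg19. Aligner, counter, annotation and strand setting were not given in the sources used here, and the kit named in the labels' protocols marks strand. A total of 2 blank rows (0% of counts) were left out. The test was edgeR 4.0.16 (R 4.3.3), quasi-likelihood, two-sided, TMM scaling, Benjamini-Hochberg adjustment over 14766 genes, threshold 0.05, with each SE derived from the F statistic and the log2 fold change. The script was tested on simulated counts. Alternatives were 2 other scalings, 2 other filters on low counts, DESeq2 1.42.0, a robust fit, a replicate block and leaving out each library. Genes and lists were chosen with earlier results of these data known. Values per library are given for BRCA1, BRCA2, FANCD2, ATM, ATR, CHEK1, CHEK2 and the 14 called members with the largest change, and from each other list up to 3 called genes with the largest change are named. Symbols came from a gene name table, promoters from RefSeq (GRCh38.p14), and exon lengths and overlaps, for the members only, from GENCODE 29.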

Additional observations from a re-analysis of the deposited data

How the results depend on the processing

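The count of called members was 21 to 29 over the alternatives, with 18 to 27 higher and 2 or 3 lower, beside 25, 22 and 3 as reported. With total-count scaling the median of the members was 0.29, that of all tested genes was 0.099, and the split of all genes moved from 2785 higher and 3332 lower to 4449 and 2269. Leaving out a library gave 21 to 25 called members, and 4975 to 5804 called genes in all beside 6117. In the other lists, leaving out a library took the genes called lower to as few as 2 (other homologous recombination), 2 (replication checkpoint) and 0 (chromatin response), and those called higher to as few as 3 (replication checkpoint) and 1 (other Fanconi). With the replicate number as a block, 26 members were called (RAD50 was added, adjusted p = 0.046) and 6414 genes in all. The labels give no pairing, and the deviations of same-numbered libraries correlated at -0.02716 to 0.09341, 3 of 6 libraries correlated best with their own number, and the reported fit has no block. CHEK1, FANCG, XRCC3, TP53BP1, FANCM, RAD54L and BLM lost their calls under at least 1 alternative, and the cause was not tested. RAD50 and RAD51B had low levels, at 5.94 and 6.09 CPM in the shcontrol libraries, and MDC1 was below the minimum for testing; relative counting noise is larger at such levels.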

Other observations

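The reads of FANCD2 and of the gene for its deubiquitinase USP1 moved apart. The ratio of FANCD2 to USP1 reads was 0.676, 0.653 and 0.626 in the shcontrol libraries and 1.31, 1.29 and 1.32 in the shRNF26 libraries, a log2 difference of 1.01. The ratio of ATR to CHEK1 reads was 0.723, 0.678 and 0.716 against 0.948, 0.976 and 0.953, while that of ATM to CHEK2 overlapped between groups, at 5.19 to 6.49 against 4.82 to 5.37. These are 3 of 7 ratios between partner genes computed after the values were known, and no test was made of them.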
